A study of Daphnia magna with 3 samples.

Results

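The genes of glycolysis, the citrate cycle and the storage sugars glycogen and trehalose were examined in the wild-type transcriptome of the water flea Daphnia magna. They were found by the enzyme names in the descriptions of the gene table, from hexokinase and enolase to isocitrate dehydrogenase, glycogen and trehalose-phosphate, and 63 of 47109 gene records were taken in this way. Of these, 21 belonged to glycolysis with lactate dehydrogenase, 7 to the pyruvate dehydrogenase complex, 15 to the citrate cycle and 10 to glycogen and trehalose. The remaining 10 carried the same words but were regulators or enzymes of other pathways. The search used the words alone and no measured value, although the words were chosen with earlier results of these data known.

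The series holds 1 group, wild-type females of the NIES strain under nutrient-rich feeding with algae, sampled at 12 days at the release of clutch 2. Each of the 3 libraries was made from whole bodies of 5 pooled animals after removal of the eggs they carried. There was no treated or mutant group to compare with, so levels, and the spread between these 3 libraries, are what the data can show. The study repeated its treatments for triplicate sampling and took these libraries from another preparation by the same methods, so the spread may hold biological and technical differences alike.

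Glycolysis splits glucose into pyruvate in the cytoplasm, the pyruvate dehydrogenase complex turns pyruvate into acetyl-CoA in the mitochondrion, and the citrate cycle oxidises it. Lactate dehydrogenase takes the other exit from pyruvate and regenerates NAD when oxygen is short. In arthropods, glycogen is the stored sugar of tissues and trehalose the sugar carried in the haemolymph, and whole-body RNA mixes the muscle, gut, fat cells and ovary that use these routes. In such bulk RNA, fewer cells of a type and less RNA per cell cannot be told apart.

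Gene records received between 8679171 and 9092389 counts per library. The listed records took 1.01% of them in replicate 1, 1.14% in replicate 2 and 1.22% in replicate 3, or 1.13 ± 0.107% (SD, n = 3). The 95% Wilson intervals, which cover counting error only, ran from 1.004% to 1.017%, from 1.14% to 1.15% and from 1.22% to 1.23%. The share therefore differed between libraries by more than counting error. These are shares of library totals. In replicate 3 the size used for scaling (described under processing) was above the total, 9701738 against 9092389, and in the other libraries below it. The rise from replicate 2 to replicate 3 thus depends on the scaling. As a share of TPM, described below, the listed records held 0.818%, 0.897% and 0.959%. A total of 49 records had counts in every library, 1 in some of them and 13 in none. The 13 silent records were short, the longest spanning 475 bp, and 10 of them overlapped another record, often the full-length record of the same enzyme. By depth alone, no count still allows 0.354 CPM in replicate 1, 0.353 CPM in replicate 2 and 0.309 CPM in replicate 3. CPM are counts scaled to library size, as described under processing. Reads over the overlapping pieces may have been counted on the other record, so these limits may not hold for them.

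The listed genes were abundant. In TPM (a transcript level corrected for length), the 49 detected records had a median of 70.5, against 6.25 for all 19927 records detected in every library and 10.9 for the 11313 of these with a description. Of the 49, 38 lay above the median of all detected records and 26 in the top 10%. Sorted by description, the listed records fell into 37 classes, and counts were found for 36. The class without counts held 2 isocitrate dehydrogenase records of no stated compartment. Every enzyme or subunit told apart by the descriptions thus had counts.

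Within glycolysis GAPDH, aldolase and enolase had the highest levels per length, and phosphofructokinase, hexokinase and pyruvate kinase the lowest. Glyceraldehyde-3-phosphate dehydrogenase (GAPDH), the enzyme that makes the first NADH, was the most abundant step at 2143, 2273 and 2544 TPM in replicates 1, 2 and 3, or 2320 ± 204 TPM (SD, n = 3). Its signal came from 1 record (Dapma7bEVm015323co09014NoSplit, contig09014, 5 to 887, plus strand), with 11823, 12611 and 15294 counts. The second GAPDH record, a 38 bp piece, had none. Fructose-bisphosphate aldolase, which cuts the sugar into its 3-carbon parts, followed at 811, 925 and 1048 TPM (scaffold01253, 312758 to 314607, plus strand). Enolase, which makes phosphoenolpyruvate, had 786, 862 and 886 TPM (scaffold00781, 582805 to 585483, plus strand). Aldolase was above enolase in each library, by 0.13 ± 0.10 on the log2 scale (SD, n = 3).

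The enzymes that act between GAPDH and enolase were lower. Phosphoglycerate mutase (scaffold00512, 2559834 to 2560982, minus strand), which moves the phosphate of phosphoglycerate, had 254, 305 and 352 TPM. Phosphoglycerate kinase (scaffold00248, 90891 to 92708, minus strand), the first ATP-making enzyme of the route, had 236, 274 and 306 TPM. Both were lowest in replicate 1 and highest in replicate 3, as were aldolase and GAPDH.

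The 3 enzymes at which flux through glycolysis is classically regulated had the lowest levels of the route in TPM. Phosphofructokinase (scaffold00930, 25345 to 31069, minus strand), which commits the sugar to glycolysis, had 131, 159 and 145 TPM. Its place rests on the correction for length, since in CPM it averaged 392, above phosphoglycerate kinase at 336 and mutase at 180. Hexokinase, which traps glucose in the cell as its phosphate, summed to 106, 91.6 and 78.4 TPM over its records and was the only one of the 9 glycolytic steps that was lowest in replicate 3 and highest in replicate 1. Pyruvate kinase, which makes pyruvate and ATP, had 70.9, 84.4 and 71.2 TPM. GAPDH lay 31.0 ± 4.43 fold above pyruvate kinase within a library (SD, n = 3). Each neighbouring pair in the order of the 9 steps kept its order in all libraries, with a mean difference larger than its SD, and the difference closest to its SD was that of pyruvate kinase and hexokinase, at -0.28 ± 0.26 on the log2 scale. The pyruvate kinase record (Dapma7bEVm002674sc02865NoSplit, scaffold02865, 170911 to 174338, minus strand) overlaps an undescribed record on the same strand with a mean of 3366 counts against its own 1316, so reads there may have been divided and its level is uncertain. The study placed this record in cluster D, 1 of the groups it formed from a contrast of DNMT3.1 mutant and wild-type animals under starvation, which was not analysed here.

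**Figure D1:**
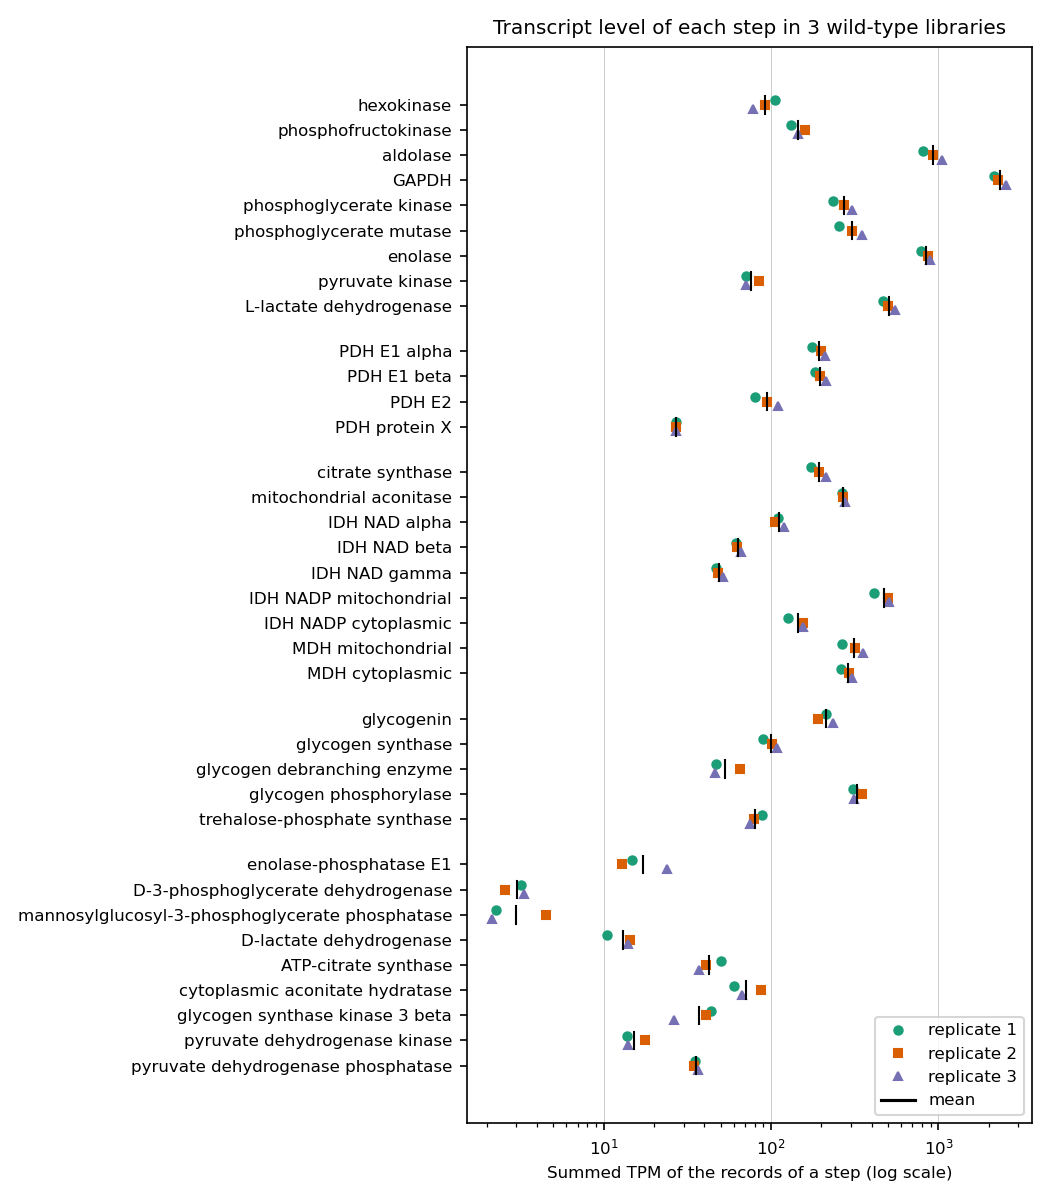
Summed TPM (log scale) of the records of each enzyme or subunit, in the order of the pathway from top to bottom, with 1 point per library and a bar at the mean of 3 libraries. GAPDH stands highest at 2143 to 2544 TPM, and hexokinase and pyruvate kinase lowest among the glycolytic steps. PDH, pyruvate dehydrogenase; IDH, isocitrate dehydrogenase; MDH, malate dehydrogenase.

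Hexokinase was carried mostly by 1 of its 3 records. The leading record (Dapma7bEVm002334sc01056Split02, scaffold01056, 214 to 2967, plus strand) had 88.2, 78.8 and 63.3 TPM, and a second hexokinase gene (scaffold00146, 7971 to 10848, plus strand) had 17.5, 12.8 and 15.1 TPM. The leading record was 5.14 ± 0.984 fold higher (SD, n = 3). On the CPM scale it had 110, 98.6 and 75.2 in replicates 1, 2 and 3, a range of 1.46-fold and 1 of the 5 widest among listed records that averaged 10 CPM or more. The first part of this split gene model, 168 bp on another scaffold, had no counts.

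L-lactate dehydrogenase had the most records of any enzyme, 8, and 2 of them gave nearly all of its level. The summed level was 469, 498 and 548 TPM. A record described as the A chain (Dapma7bEVm010075sc03124Split02, scaffold03124, 1994596 to 1996304, plus strand) had 325, 370 and 414 TPM, or 73.1 ± 3.25% of the sum (SD, n = 3). A record described as the B chain (Dapma7bEVm004798sc01764NoSplit, scaffold01764, 907 to 2656, minus strand) had 136, 114 and 123 TPM, or 24.8 ± 3.62%. The other 6 records summed to 7.56, 13.5 and 10.8 TPM.

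The B record opens a row of 5 lactate dehydrogenase records on the minus strand of the same scaffold, between positions 907 and 13354. Its neighbours were far lower, although they lie side by side and partly overlap it. The record at 3635 to 5241 had 33, 59 and 55 counts, and the one at 6664 to 13354 had 22, 28 and 14 counts. This last record is 1 part of a split gene model whose other part, on scaffold01657, had 29, 70 and 54 counts. The study placed this gene model in cluster D. The parts that overlap the B record had 4, 3 and 4 counts and 1, 0 and 1 counts. The A and B records also differed in which library was highest: the A record was lowest in replicate 1 at 379 CPM and highest in replicate 3 at 459 CPM, and the B record was highest in replicate 1 at 157 CPM, against 133 and 136 CPM in replicates 2 and 3. Near-identical copies can share reads, so the split between neighbouring copies is uncertain.

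**Figure D2:**
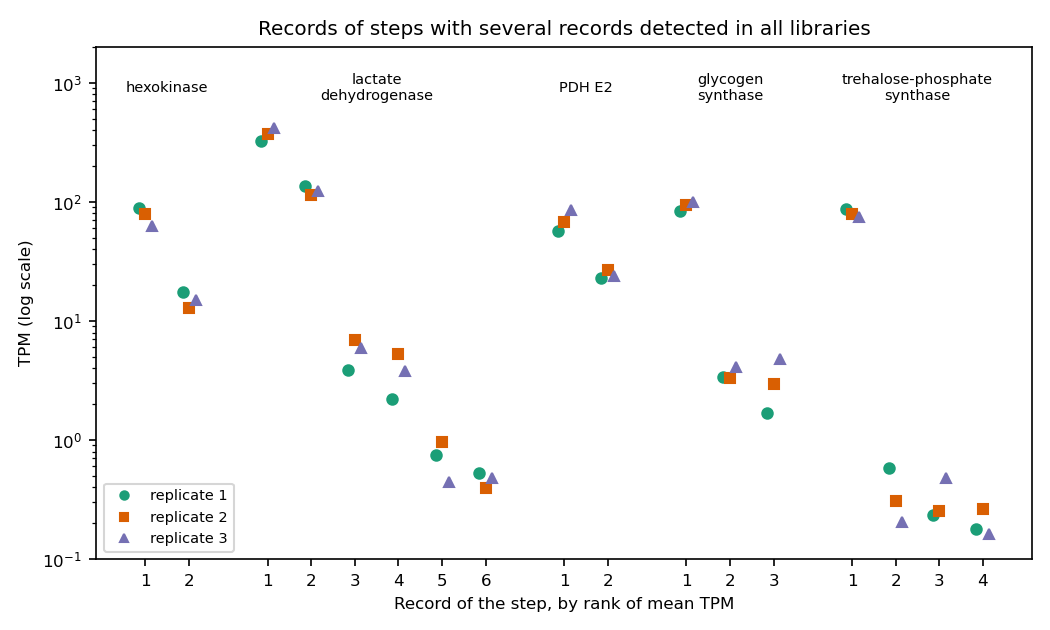
TPM (log scale) of single records in the 5 pathway enzymes with several records detected in all libraries, with 1 point per library and records ranked by mean TPM within an enzyme. In each enzyme the leading record stands above all others in every library, and lactate dehydrogenase, glycogen synthase and trehalose-phosphate synthase have further records below 10 TPM.

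In the pyruvate dehydrogenase complex the subunits stood at different levels. The alpha and beta subunits of E1, the decarboxylase, had nearly the same level. E1 alpha (scaffold00626, 809877 to 812030, plus strand) had 176, 198 and 209 TPM. E1 beta (scaffold02127, 523 to 2332, plus strand) had 183, 197 and 213 TPM. They differed by 0.02 ± 0.04 on the log2 scale (SD, n = 3), less than their spread. In animals, E1 is built of equal numbers of both subunits.

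E2, the acetyltransferase core, was lower at 79.8, 95.1 and 110 TPM over its records. Its leading record (Dapma7bEVm001170sc00868Split02, scaffold00868, 992802 to 995372, plus strand) had 56.7, 68.4 and 86.3 TPM and overlaps a second E2 record with 23.1, 26.7 and 23.7 TPM. These overlapping records describe 1 locus, and the division of reads between them is uncertain. Protein X, which anchors the E3 enzyme to the core, was the lowest of the listed subunits at 27.0, 26.9 and 27.0 TPM (scaffold01812, 2092 to 4285, minus strand), and the least variable of the 27 steps on the TPM scale. E3 itself was not among the listed records.

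Among the citrate cycle enzymes the NADP-dependent isocitrate dehydrogenase of mitochondria, a source of NADPH outside the cycle proper, had the highest level. Its record (Dapma7bEVm010382sc01019NoSplit, scaffold01019, 2821 to 5427, minus strand) had 410, 501 and 505 TPM. The cytoplasmic NADP enzyme (scaffold03242, 15983 to 18554, plus strand) had 127, 154 and 155 TPM. The mitochondrial form lay 3.24 ± 0.00957 fold above the cytoplasmic form (SD, n = 3), so that both were low in replicate 1 by the same proportion.

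The NAD-dependent isocitrate dehydrogenase, the form that drives the cycle, is built of alpha, beta and gamma subunits. The alpha subunit (scaffold00996, 238762 to 240369, minus strand) had 110, 106 and 120 TPM. The beta subunit (scaffold02385, 1047608 to 1049651, plus strand) had 61.7, 62.2 and 65.8 TPM, and the gamma subunit (scaffold00687, 1880511 to 1881822, minus strand) had 46.9, 48.1 and 51.4 TPM. Alpha exceeded beta, and beta exceeded gamma, by more than the spread. The beta and gamma levels together came to 109, 110 and 117 TPM and differed from alpha by 0.00 ± 0.05 on the log2 scale (SD, n = 3), a sum that was taken after the values had been seen. In mammals, the enzyme holds more alpha subunits than beta or gamma subunits.

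Malate dehydrogenase, the last enzyme of the cycle, was represented in both compartments at similar levels. The mitochondrial form (scaffold00626, 12597 to 14321, minus strand) had 267, 319 and 356 TPM, and the cytoplasmic form (scaffold03025, 570861 to 572912, plus strand) had 263, 291 and 306 TPM. The mitochondrial record overlaps another on the same strand with a mean of 1066 counts, and the cytoplasmic record overlaps one with a mean of 731 counts, so both levels are uncertain to that extent. Mitochondrial aconitase, which isomerises citrate, had 266, 268 and 276 TPM (scaffold01274, 427356 to 430955, plus strand) and did not differ from the cytoplasmic malate dehydrogenase beyond the spread. Citrate synthase, the entry enzyme, was lower than both at 174, 194 and 214 TPM (scaffold00700, 1025 to 3725, minus strand), and did not differ beyond the spread from the E1 alpha subunit of pyruvate dehydrogenase.

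Of the storage sugar genes, glycogen phosphorylase, which releases glucose phosphate from glycogen, was the most abundant. Its record (Dapma7bEVm000378sc00996NoSplit, scaffold00996, 253432 to 259124, plus strand) had 311, 352 and 311 TPM, or 325 ± 23.4 TPM (SD, n = 3). It lies on the same scaffold as the alpha subunit of isocitrate dehydrogenase, 13062 bp away and on the other strand. Glycogenin, which primes new glycogen, had 214, 190 and 235 TPM (scaffold01663, 432649 to 436032, minus strand). Its record overlaps an undescribed one on the same strand with a mean of 807 counts against its own 3570, so its level is uncertain to that extent. The glycogen debranching enzyme, which opens the branch points during breakdown, was lower at 47.0, 65.2 and 46.3 TPM and on the CPM scale stood at 226, 314 and 212, high in replicate 2 (scaffold02850, 791543 to 801457, minus strand).

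Glycogen synthase, which extends the chain, summed to 89.5, 101 and 109 TPM, of which 93.2% came from 1 record (scaffold02938, 154884 to 158749, plus strand). A pair of overlapping records on scaffold02076 made up the rest, with 173, 169 and 227 counts in the longer and 14, 25 and 44 counts in the shorter. The longer also overlaps a record of TATA-box-binding protein on the same strand with a mean of 230 counts. The shorter also overlaps a record of another gene with a mean of 30.0 counts, so the counts of both are uncertain. Trehalose-phosphate synthase, the enzyme of trehalose synthesis, summed to 87.8, 79.3 and 75.1 TPM, of which 98.9% came from 1 record (Dapma7bEVm009716sc03258NoSplit, scaffold03258, 566600 to 569756, minus strand). A further record of this enzyme on scaffold00642, with 13, 7 and 5 counts, was placed by the study in cluster A, too few to be tested.

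The relation between enzymes at branch points was compared within each library for 6 pairs by a two-sided permutation test (exact, by flipping signs). With 3 libraries it cannot give a p below 0.25, and all 6 pairs reached this value (p = 0.25, adjusted p = 0.25, exact). Glycogen phosphorylase exceeded glycogen synthase by 1.80, 1.80 and 1.51 on the log2 scale of TPM, or 1.70 ± 0.16 (SD, n = 3). NADP-dependent isocitrate dehydrogenase exceeded the summed subunits of the NAD enzyme by 1.46 ± 0.15, and lactate dehydrogenase exceeded the summed E1 subunits by 0.37 ± 0.03. Each of these differences had the same sign in 3 of 3 libraries and was larger than the spread.

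The other pairs were closer. Mitochondrial malate dehydrogenase exceeded the cytoplasmic form by 0.12 ± 0.10 (SD, n = 3), and in replicate 1 by 0.02 only. Pyruvate kinase lay below hexokinase, at -0.28 ± 0.26, and trehalose-phosphate synthase below glycogen synthase, at -0.30 ± 0.26. The first 2 of these signs depended on the correction for length, since counts alone gave -0.16 for malate dehydrogenase and 0.31 for pyruvate kinase over hexokinase. The sign of lactate dehydrogenase over E1 depended on summing the records, since the leading records alone gave -0.0867.

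The regulators and enzymes of other pathways were mostly lower. The cytoplasmic aconitate hydratase, a relative of the iron regulatory protein of animals, was the most abundant of them at 59.8, 86.8 and 66.9 TPM (scaffold01830, 168888 to 174529, plus strand). On the CPM scale it had 189, 274 and 201, high in replicate 2. ATP-citrate synthase, which makes cytoplasmic acetyl-CoA for lipid synthesis, had 50.3, 40.9 and 37.1 TPM.

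Pyruvate dehydrogenase is switched off by a kinase and on by a phosphatase. The kinase record (Dapma7bEVm004774sc00626NoSplit, scaffold00626, 556293 to 558984, minus strand), placed by the study in cluster B, had 13.8, 17.7 and 14.0 TPM. The phosphatase had 2 records. The catalytic one had 21.4, 19.7 and 22.6 TPM (scaffold00115, 238385 to 240904, minus strand) and the regulatory subunit 13.8, 14.8 and 14.1 TPM (scaffold02167, 313752 to 317278, plus strand). Kinase levels were lower than those of the first phosphatase record in all libraries, at 0.722 ± 0.153 of its TPM (SD, n = 3).

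Of the rest, D-lactate dehydrogenase had 10.5, 14.3 and 14.1 TPM. Phosphoglycerate dehydrogenase, the first enzyme of serine synthesis, had 3.20, 2.58 and 3.36 TPM. A record described as a phosphoglycerate phosphatase of mannosylglucosyl compounds (Dapma7bEVm027874sc00024NoSplit), placed by the study in cluster B, had 31, 62 and 32 counts and overlaps a record of like abundance. These were the least abundant regulators and other enzymes.

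To see how stable the listed genes were between libraries, counts were compared in 3 ways. By a chi-square test of homogeneity, 34 of the 46 records tested varied beyond counting noise (adjusted p under 0.05), or 73.9%, against 54.5% of all 15516 records tested. Without replicate 1, 20 of the 46 varied, against 29.0% of all records. The test finds more in abundant records: at a mean CPM of at least 100, 24 of 26 listed records varied, against 92.2% of all records. At like abundance the listed genes were thus called about as often as other records.

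By role, the test called 13 of 14 glycolytic records and 3 of 5 of the pyruvate dehydrogenase complex. It called 5 of 9 in the citrate cycle, 6 of 8 storage sugar records and 7 of 10 regulators and other enzymes. Over all records tested the share was 54.5%, and among abundant ones (100 CPM or more on average) 92.2%. The counts by role were not matched for abundance, so they do not rank the roles by stability. The 4 citrate cycle records that did not pass were mitochondrial aconitase and the 3 subunits of the NAD-dependent isocitrate dehydrogenase. Aconitase had 580, 586 and 574 CPM (adjusted p = 0.609), a coefficient of variation of 1.08% at 4913, 4979 and 5564 counts. The alpha, beta and gamma subunits had coefficients of variation of 3.75%, 0.794% and 2.21%. The 2 NADP-dependent enzymes varied by 10.4% in mitochondria (adjusted p = 3.1e-27) and 10.2% in the cytoplasm (adjusted p = 6.6e-07). Citrate synthase and both malate dehydrogenases also passed the test, with coefficients between 5.84% and 12.0%. Both phosphatase records of pyruvate dehydrogenase and protein X did not pass, with coefficients between 2.70% and 5.09%.

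In size, the differences were small. Among the 39 listed records that averaged 10 CPM or more, the highest library exceeded the lowest by a median of 1.21-fold, against 1.34-fold over all 8976 such records. The median coefficient of variation was 9.63%, against 15.1% over all records, and at a mean CPM of at least 100 it was 9.91% against 15.1%. A range under 1.5-fold was found in 37 of the 39, against 69.0% of all records. The biological coefficient of variation of edgeR estimates the spread left after counting noise, and each value is drawn towards those of other records. Mitochondrial aconitase, with a coefficient of variation of 1.08%, thus had 0.185 on this scale. The median of the biological coefficient was 0.195 over 46 listed records, against 0.263 over all 15816 records. At a mean CPM of at least 100, these medians were 0.193 and 0.205.

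A library stood apart, at 1.5-fold or more from both others, in 2 of the 39 records, or 5.13%, against 16.9% of all records. In 1 record replicate 3 was high, against 0.88% of all records, and in 1 it was low, against 4.42%. Replicate 1 was high in 0 of the 39, against 5.45%, and low in 0, against 4.98%. Neither of the 2 records was an enzyme of the pathway: 0 of the 31 pathway records at this level had a library apart. Glycogen synthase kinase 3 beta, a kinase that inhibits glycogen synthase and has many other targets, was low in replicate 3, with 62.5, 58.9 and 35.8 CPM (Dapma7bEVm010060sc02994NoSplit, scaffold02994, 201312 to 204694, plus strand). Enolase-phosphatase E1, an enzyme of methionine salvage, was high in replicate 3, with 9.57, 8.36 and 14.6 CPM, and overlaps a record with a mean of 428 counts against its own 98.0. Without replicate 3, 0 of 38 listed records had a library apart, against 17.1% of all records. Both the kinase and enolase-phosphatase E1 had a range of 1.75-fold, the widest among these 39. Debranching enzyme, hexokinase and cytoplasmic aconitate hydratase followed at 1.48-fold, 1.46-fold and 1.46-fold.

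**Figure D3:**
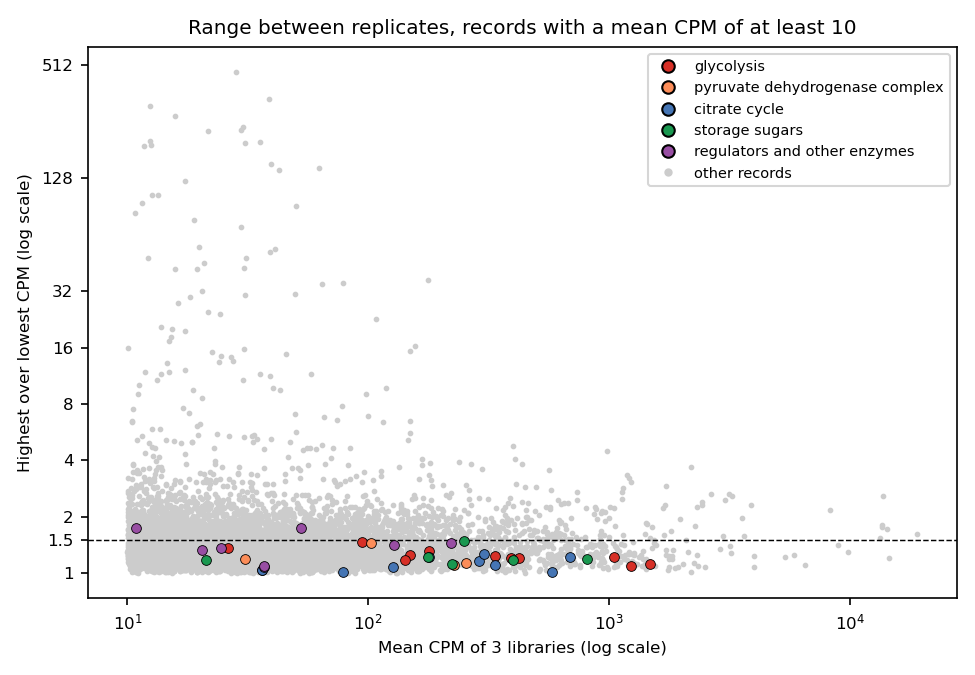
Highest over lowest CPM of 3 libraries (log scale) against mean CPM (log scale), 1 point per record at 10 CPM or more on average. The listed genes, coloured by role, lie under the dashed line at 1.5-fold except for 2 regulators and other enzymes at 1.75-fold, and the other records in grey reach far above it.

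The small differences were not spread evenly over the libraries. Of the 39 records, 13 were lowest in replicate 1 and highest in replicate 3, or 33.3%, against 17.6% of all records. They were 5 glycolytic records, 3 of the pyruvate dehydrogenase complex, 4 of the citrate cycle and 1 of the storage sugars, and none of the regulators and other enzymes. Replicate 3 was above replicate 1 in 25 of 39 records, or 64.1%, against 43.0% of all records. In the citrate cycle this held for 8 of 9 records and in glycolysis for 7 of 11. Scaled by library totals instead, 20 of the 39 had this order, against 27.4% of all records, and on the deposited TPM 18 had it, against 22.3%. In 12 of the 39 that overlapped no other record, it was 6, against 16.6%. The order with replicate 2 lowest and replicate 1 highest was found in 2 of the 39, against 20.2%. These orders were noticed in the data and have no test.

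The sizes were modest. The median deviation of a library from the mean of the others was -0.13, 0.07 and 0.06 on the log2 scale in replicates 1, 2 and 3 for the listed records, against 0.08, -0.01 and -0.03 over all 8976 records. In the citrate cycle, the deviation of replicate 1 was -0.15, and 14 of the 20 glycolytic and citrate cycle records were lowest there. Over all 39 listed records, 20 were lowest in replicate 1, against 32.4% of all records. Storage sugar records had a median deviation of -0.07 in replicate 1, 0.04 in replicate 2 and -0.03 in replicate 3, with different genes highest in different libraries.

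**Figure D4:**
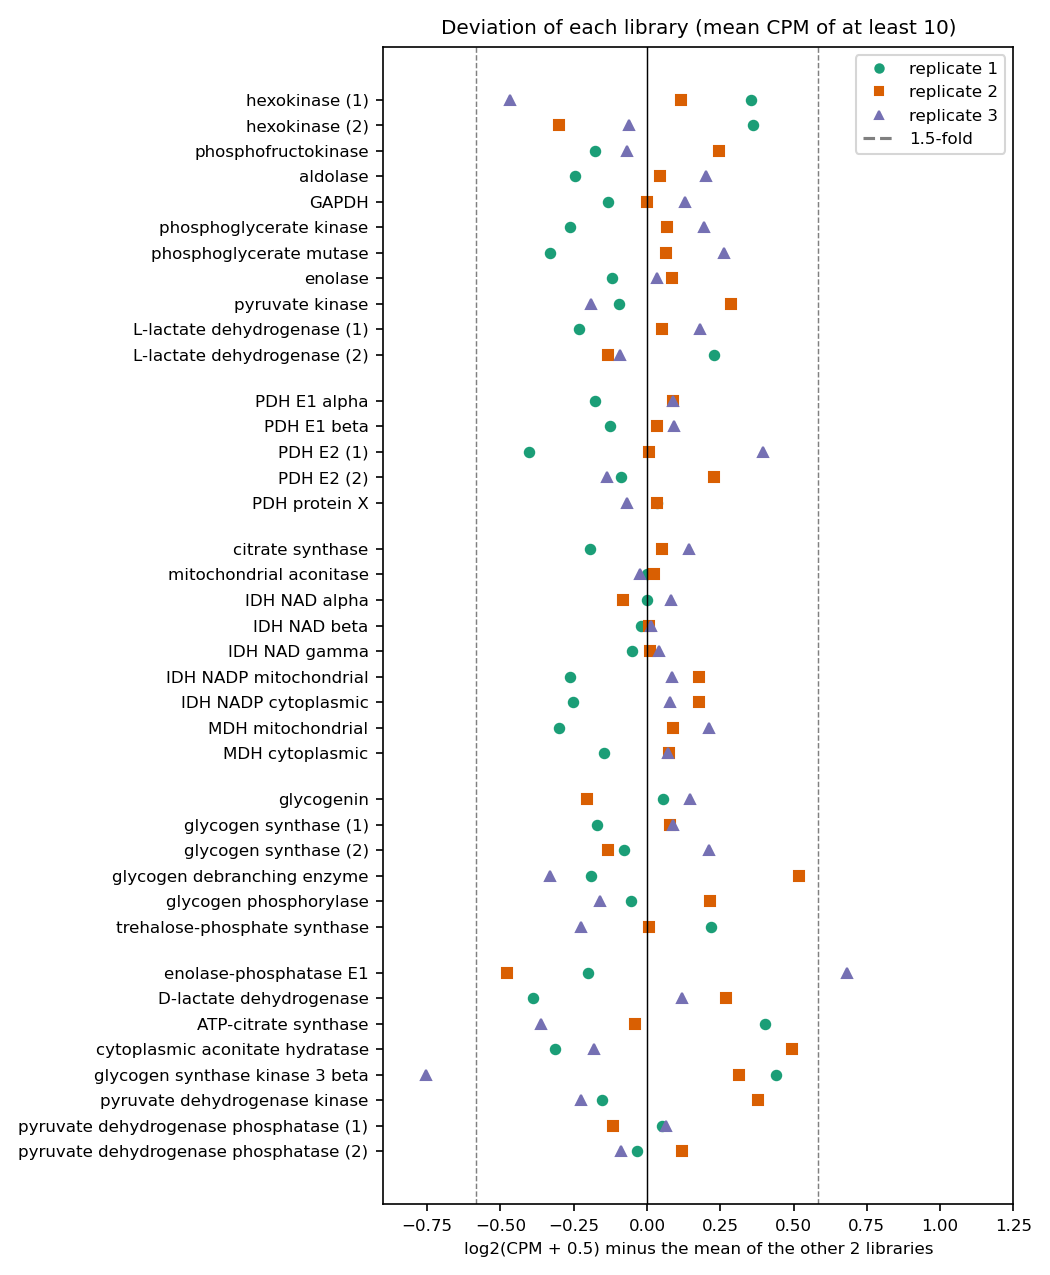
Deviation of each library from the mean of the other 2, in log2(CPM + 0.5), for the 39 listed records that averaged 10 CPM or more, grouped by role from glycolysis at the top to regulators and other enzymes at the bottom. Replicate 1 lies left of 0 in most glycolytic and citrate cycle records, and only enolase-phosphatase E1 and glycogen synthase kinase 3 beta pass a dashed line at 1.5-fold.

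Other features moved between the same libraries. Shorter records were higher in replicate 3: across records, length and the log2 ratio of replicate 3 over replicate 1 had a Spearman coefficient of -0.38 over the 39 listed records and -0.36 over 8968 records with a length, a description across genes that share the same libraries. Between 1000 and 2000 bp, the median log2 ratio was 0.15 for 20 listed records, against -0.03 for all 3317 records, and 14 of the 20 were higher in replicate 3, against 46.9%. At 3000 bp or more, it was 0.02 for 6 listed records, against -0.36 for 1768 records. In each of 4 length classes the median of the listed genes lay above that of all records, although the other classes held only 4 and 9 listed records.

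Marker genes of the tissues in a whole animal differed as well. Summed over 24 vitellogenin records (21 detected in all libraries), the yolk protein made by adult females, CPM was 67916 in replicate 1, 81894 in replicate 2 and 42103 in replicate 3. Muscle markers, 27 records such as myosin heavy chain and troponin (21 detected in all libraries), summed to 8166, 7632 and 5108 CPM, lowest in replicate 3. Gut proteases and amylases differed little, at 14057, 14499 and 14805 CPM over 122 records (80 detected in all). Haemoglobin summed to 15828, 16056 and 18684 CPM over 27 records (13 detected in all). The 7 of them with 10 CPM or more on average had median deviations of 0.09, -0.38 and 0.35, another order than the sum. Ovary and dividing cell markers summed to 2594, 1858 and 1763.8 CPM over 57 records (45 detected in all) and cuticle proteins to 6362, 9643 and 8921 CPM over 353 (108 detected in all). The 27 cuticle records with 10 CPM or more on average had median deviations of -0.31, 0.19 and 0.29. Ribosomal proteins, of which 85 of 115 records were detected in all, were low in replicate 1 and high in replicate 3, with median deviations of -0.37, 0.13 and 0.22 over the 75 with 10 CPM or more on average. The part of these markers, and of length, in the order of the listed genes was not tested.

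Genes of the same and neighbouring routes whose names were not among the search words were read from a further list of 77 records, of which 58 were detected in all libraries. The list also holds 32 records described as trehalose transporters, 3 assembly factors of succinate dehydrogenase and enzymes of the pentose phosphate route. Of 57 tested, 45 varied beyond counting noise, or 78.9%, against 54.5% of all records. The test finds more in abundant records, with 92.2% called at a mean CPM of at least 100. The 36 that averaged 10 CPM or more had a median of 99.1 CPM, against 32.6 over all such records. Of these 36, 26 were higher in replicate 3 than in replicate 1, against 43.0% of all records. Without the transporters, 30 of 37 varied and 20 of 28 were higher in replicate 3. Triosephosphate isomerase, the glycolytic enzyme next to aldolase and GAPDH, had 398, 434 and 479 TPM. Succinate dehydrogenase, shared by the citrate cycle and the respiratory chain, had 181, 195 and 195 TPM in the leading record of its flavoprotein subunit and 145, 153 and 169 TPM in its iron-sulfur subunit. Fumarate hydratase, which makes malate, had 120, 108 and 122 TPM.

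The leading record of 2-oxoglutarate dehydrogenase, a complex built like that of pyruvate, was its succinyltransferase core with 158, 151 and 143 TPM. Of the enzymes that run glycolysis backwards, phosphoenolpyruvate carboxykinase summed to 289, 290 and 360 TPM and fructose-bisphosphatase had 254, 273 and 328 TPM, both highest in replicate 3. Pyruvate carboxylase had 170, 147 and 135 TPM, in the opposite order. Transketolase of the pentose phosphate route had 415, 344 and 310 TPM, also highest in replicate 1. The enzymes of these routes thus did not all share 1 order of libraries.

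The trehalose synthase, at 75.1 to 87.8 TPM, was higher in each library than the records described as trehalase, the enzyme that splits trehalose into glucose. These summed to 48.5, 53.7 and 52.6 TPM over 3 records. Among them was an acid trehalase-like protein 1 with 11.1, 16.4 and 13.1 TPM, counted as trehalase by its name alone. Records described as trehalose transporters were the most numerous on the further list, 32 that summed to 151, 163 and 183 TPM. The leading one had 27.1, 34.0 and 33.6 TPM. Only 23 of the 32 were detected in all libraries, and some are parts of split gene models, so the number of genes is uncertain. Their substrate was read from the description alone.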

How the data were processed

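Counts, TPM, RPKM and a scaled signal per gene record were deposited for 3 libraries. Reads were mapped by the authors with CLC Genomics Workbench, using the genome from wFleaBase, and the total counts of each record were deposited. Neither genome version nor strand setting is given in the sources used here. By the authors' scaling, the deposited RPKM values are relative to length and library size, and the deposited TPM values share a common sum. The deposited signal, named CPM per the file headers, is a count divided by the same TMM (trimmed mean of M-values) size that was computed here. The authors added descriptions with Blast2GO, and no sequence was read. Of the listed records, 46 overlap another record and 22 are parts of split gene models.

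From the counts, TMM sizes and biological coefficients of variation (intercept-only model, mean CPM of at least 1) were computed with edgeR 4.0.16 in R 4.3.3. CPM in the text uses these sizes. The chi-square test (2 degrees of freedom) took every record averaging 10 counts or more, and p-values were adjusted over all of them after Benjamini-Hochberg, with a threshold of 0.05. Record lengths were recovered from counts and RPKM. Floors were set at 3 counts. Members and gene lists were chosen with earlier results of these data known. Named genes were the leading record of each role, the next one at 0.25 of its TPM or more, the 5 widest ranges and the members of the study's clusters A to E. A few others were named after their values were seen. Alternatives were DESeq2 1.42.0 size factors and dispersions, library totals, other minimums, records without overlap, single leading records and leaving out each library. Figures were drawn with matplotlib 3.10.9, and the other steps used scipy 1.17.1, pandas 2.3.3 and numpy 2.4.6 under Python 3.11.15.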

Additional observations from a re-analysis of the deposited data

How the results depend on the processing

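No paired analysis was possible because the series holds 1 group. Without replicates 1, 2 and 3 in turn, 20 of 46, 25 of 46 and 29 of 47 listed records varied, against 29.0%, 45.0% and 38.6% of all records. With all libraries it was 34 of 46, against 54.5%. The median biological coefficient of variation was 0.159, 0.244 and 0.224 in the same order, against 0.195 with all libraries. Over all records it moved alike, at 0.215, 0.324 and 0.292, against 0.263 with all libraries. A library stood apart in 2 of 39, 2 of 39 and 0 of 38 listed records, against 10.4%, 21.9% and 17.1% of all records. Among records without overlap, of which there were fewer, 11 of 14 varied (50.1% of all such records), 0 of 12 had a library apart (12.1%) and 6 of 12 were lowest in replicate 1 and highest in replicate 3 (16.6%). Library totals gave this last order in 20 of 39 records (27.4%). A mean CPM of at least 1 gave 7 of 46 with a library apart, against 31.4% of all records, and a 2-fold limit gave 0 of 39, against 4.19%. The listed genes held 0.891% of the TPM, against 1.13% of the counts. The reversed ratios were lactate dehydrogenase over E1 (-0.0867 with leading records only), malate dehydrogenase (-0.16) and pyruvate kinase over hexokinase (0.31), the last 2 without length correction, where longer records gain. The other ratios kept their sign in every setting. GAPDH was the highest of 27 steps under each of the 5 alternatives, and step levels correlated with the reported ones at a Spearman coefficient of at least 0.995. Depth and overlap with other records limit the silent records and those under 10 counts, for which no order of libraries could be read.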

Other observations

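The gene ontology terms that came with the table cover the listed genes only in part. The term for the glycolytic process was carried by 11 of the listed records out of 22 in the whole table, and that for the tricarboxylic acid cycle by 16 out of 36. Of the 5 records with the term for trehalose biosynthesis, 4 were listed, and of the 6 with that for glycogen biosynthesis, 2.

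The 63 records lay on 43 scaffolds or contigs. Besides the row of lactate dehydrogenase records, the mitochondrial malate dehydrogenase, the kinase of pyruvate dehydrogenase and its E1 alpha subunit lay on scaffold00626, with gaps of 541971 bp and 250869 bp between them. Their levels were 314, 15.2 and 194 TPM on average.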
